A study of Homo sapiens with 24 samples.

Results

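The oncostatin M receptor OSMR and 9 genes of the cytokine pathway it feeds were examined in human kidney-derived cells that expressed 1 of 7 microRNAs (miRNAs). The 10 genes, out of 29794 in each deposited count table, were the receptor chains OSMR, IL6ST (gp130) and LIFR, the Janus kinases JAK1, JAK2 and TYK2, the transcription factors STAT3 and STAT5B, and the inhibitors SOCS1 and SOCS3. All 10 were found by symbol and all 10 passed the filter on low counts in both batches. OSMR was chosen by its low level with miR-1 against the empty vector, so its values in that comparison are a description. No p is given for any gene in comparisons that hold the miR-1 libraries, and from the counts of genes past the threshold there nothing is read. SOCS1 was taken in as a known target of miR-155.

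The cells were Flp-In T-REx 293, a derivative of HEK293, an established line of human embryonic kidney origin. Each population carried a lentiviral vector with a doxycycline-inducible GFP, and the miRNA hairpin lay in an intron of that gene. The empty vector control carried the GFP vector without a hairpin. Control and miRNA populations alike were grown with Zeocin, selected with Geneticin at 1 mg/mL over 6 days and then induced with doxycycline at 1 ug/mL over 7 days. Batch 1 held 2 libraries each of empty vector, miR-1 and miR-122 cells. Batch 2 held 3 libraries each of empty vector cells and of cells with miR-373, miR-372, miR-302a, miR-155 or miR-133a. Replicates were transduced and kept separately according to the study's methods. Every population is a transduced derivative of 1 line, and its miRNA comes from a vector and not from the cell's own gene, which limits the comparison with tissues that make these miRNAs naturally.

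Oncostatin M, leukaemia inhibitory factor and their relatives bind receptor complexes that share gp130, the product of IL6ST. In the complexes for oncostatin M and leukaemia inhibitory factor, OSMR or LIFR is the second signalling chain. None of the chains has kinase activity, and the bound Janus kinases phosphorylate the receptor tails and then the STAT proteins, of which STAT3 is the main one downstream of gp130. SOCS3 and SOCS1 are made in response and shut the kinases and the receptor down. A miRNA in turn guides Argonaute to messenger RNAs, mostly through pairing of its seed, bases 2 to 8, with sites in the 3'UTR.

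The mature miRNAs are shown with the seed in capitals because they decide which letters count as a site in the 10 genes. The sequences were read 5′ to 3′ from RefSeq.
miR-1: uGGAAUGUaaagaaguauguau
miR-122: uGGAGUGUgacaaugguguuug
miR-133a: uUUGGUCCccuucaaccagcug
miR-155: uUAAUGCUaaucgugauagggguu
miR-302a: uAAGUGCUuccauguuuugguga
miR-372: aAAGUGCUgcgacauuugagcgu
miR-373: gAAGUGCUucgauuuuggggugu
miR-302a, miR-372 and miR-373 share the seed AAGUGCU, and no other pair of the 7 shares one.

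A site was counted where the transcript, read on its own strand, matched bases 2 to 8 followed by an A (8mer), bases 2 to 8 alone (7mer-m8) or bases 2 to 7 followed by an A (7mer-A1). The letters searched as 8mers were ACATTCCA for miR-1, ACACTCCA for miR-122, GGACCAAA for miR-133a, AGCATTAA for miR-155 and AGCACTTA for the shared seed. Each 7mer is the 8mer less its last or its first letter, and a 7mer inside an 8mer was counted once. In the longest annotated 3'UTR, 2 of the 10 genes held a miR-1 site, 2 a miR-122 site, 2 a miR-133a site, 5 a miR-155 site and 2 a site for the shared seed. Among 13257 tested genes with an annotated 3'UTR, 24.1% held a miR-1 site, 25.7% a miR-122 site, 17.2% a miR-133a site, 19.1% a miR-155 site and 29.95% a site for the shared seed. The 10 genes were not matched to these by 3'UTR length, so their counts are not read as an excess. OSMR (ENSG00000145623.8, GRCh37 chr5:38845960-38945698, plus strand) held none for miR-1, miR-133a or the shared seed in its 3'UTR of 2197 bases. That 3'UTR held 1 match to miR-122 and 1 to miR-155. Its open reading frame held 2 overlapping 7mer-A1 matches to miR-1, 1 to the shared seed and 3 matches to miR-122. The longer 3'UTRs of IL6ST (5987 bases) and LIFR (6927 bases) held 3 and 2 miR-155 sites. TYK2, STAT5B and SOCS3 held no 3'UTR match to any of the 7 miRNAs. In the open reading frames, IL6ST held 3 matches to miR-133a and 1 to miR-122, and LIFR 1 each to miR-1 and miR-155. JAK1 held 1 each to miR-155 and the shared seed, and TYK2 held 2 to miR-133a. STAT3 and SOCS1 each held 1 to miR-1, SOCS3 held 1 to miR-133a, and JAK2 and STAT5B held none.

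All 3'UTR sites of the 10 genes for miR-155 are shown, with the shared-seed 8mer and the miR-133a match of JAK1 and the miR-1 8mer of LIFR, because the results set levels beside them. Not shown are the 3'UTR matches of IL6ST to miR-1, of OSMR and STAT3 to miR-122, of STAT3 to the shared seed and of JAK2 to miR-133a. Each line gives 30 bases of GRCh37 on the strand of the transcript with the matched letters in capitals.
JAK1, shared seed, 8mer at chr1:65299993-65300000, minus strand: aaatatttgaaAGCACTTAagcactcctcc
JAK1, miR-133a, 7mer-A1 at chr1:65299888-65299894, minus strand: aacgaggagttGACCAAAataatatctgaa
SOCS1, miR-155, 8mer at chr16:11348669-11348676, minus strand: gccgtgcacgcAGCATTAActgggatgccg
LIFR, miR-1, 8mer at chr5:38476449-38476456, minus strand: tattttcctaaACATTCCAgttgtgtatta
LIFR, miR-155, 7mer-m8 at chr5:38478891-38478897, minus strand: attgtcaaactAGCATTAtgttccatcata
LIFR, miR-155, 7mer-m8 at chr5:38478423-38478429, minus strand: ttttccaaaccAGCATTActttcaccgctc
IL6ST, miR-155, 7mer-m8 at chr5:55232751-55232757, minus strand: agtgactgactAGCATTAggtatgtttctt
IL6ST, miR-155, 7mer-A1 at chr5:55233251-55233257, minus strand: tattatcttttGCATTAAcctatttttttc
IL6ST, miR-155, 7mer-A1 at chr5:55233181-55233187, minus strand: tcatatacattGCATTAAaaattaaaaggt
JAK2, miR-155, 7mer-m8 at chr9:5127359-5127365, plus strand: tatcgctggccAGCATTAtaagcaggtgta
OSMR, miR-155, 7mer-A1 at chr5:38933837-38933843, plus strand: cctaaggatatGCATTAAccactctacaga
A match is a description of the letters, and binding was not measured here.

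**Figure D1:**
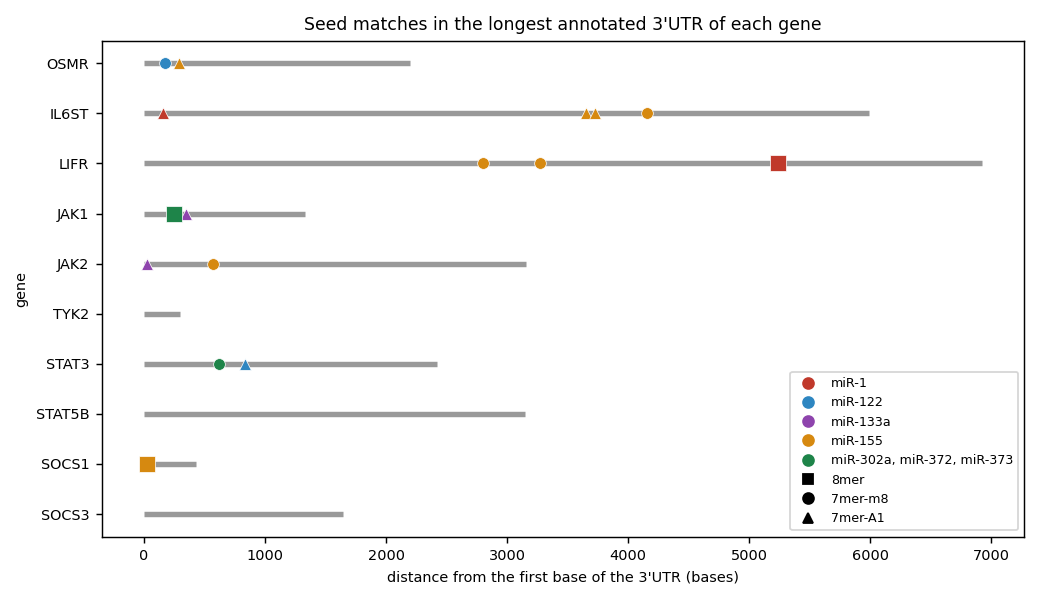
Seed matches in the longest annotated 3'UTR of the 10 genes. The x axis is the distance in bases from the first base of the 3'UTR, grey bars span each 3'UTR, colours give the miRNA seed and marker shapes the kind of match. OSMR has marks for miR-122 and miR-155 alone, JAK1 has the 8mer of the shared seed, and SOCS1 has the miR-155 8mer 24 bases into its 3'UTR.

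Libraries held 20153452 to 21595191 reads counted in genes in batch 1 and 13047400 to 35040778 in batch 2. A known target of each miRNA was lower in its group, with log2 fold changes from -0.70 (SLC7A1, miR-122) to -1.99 (TWF1, miR-1). Of 7 HEK293 markers, 7 were above 1 CPM in every library. Of markers of other cell types, 5 of blood cells summed to 0.470 to 1.82 CPM and 4 of hepatocytes to 0.0602 to 0.491 CPM. The 4 fibroblast markers summed to 2.50 to 3.75 CPM in the batch 2 control, 1.45 to 2.28 with miR-155, 1.34 to 1.60 with miR-302a, 0.705 to 2.04 with miR-372, 1.63 to 1.93 with miR-373 and 1.68 to 3.07 with miR-133a. Most of this was COL3A1, while COL1A2 and DCN had group means of at most 0.0432 CPM. The 5 muscle markers summed to 13.1 to 13.9 CPM in that control and to 10.2 to 18.1 in the miRNA groups, mostly from ACTN2, and DES had group means of 0.234 CPM in the control, 0.909 with miR-302a, 1.31 with miR-372 and 1.12 with miR-373. The part of these markers in the results was not tested. In batch 2, replicate 2 of miR-155, miR-302a and miR-372 lay furthest from its group, with root mean square log2 differences from its fellow replicates of 0.375, 0.376 and 0.422, against at most 0.316 elsewhere. In replicate 2 of miR-155 and of miR-372, log2 level less the control mean also fell most with transcript length. The slopes were -0.154 and -0.152 log2 units per doubling of length. The other miRNA libraries of batch 2 had slopes below 0 as well, from -0.013 to -0.0956, against -0.0143 to 0.0283 in the control. The control slopes lie around 0 by construction, because the control mean was subtracted. OSMR, IL6ST and LIFR are long (6507, 9078 and 10794 exonic bases). Values from a fit with each library's slope as a covariate therefore stand beside the calls they touch. This choice was made after seeing the data.

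In the empty vector cells of batch 2, level per length, in CPM per kb of exon (mean ± SD, n = 3), was 21.6 ± 0.414 for JAK1, 21.4 ± 1.39 for STAT3, 20.7 ± 1.08 for STAT5B and 18.4 ± 1.46 for TYK2. The shared chain IL6ST (11 ± 0.431) and LIFR (10.7 ± 0.439) followed. OSMR was at 1.51 ± 0.0459 and JAK2 at 1.42 ± 0.160. The inhibitors SOCS3 (0.764 ± 0.147) and SOCS1 (0.508 ± 0.178) had the lowest levels per length. JAK1, STAT3 and STAT5B differed from their neighbours in this order by less than the larger SD, as did IL6ST from LIFR and OSMR from JAK2, whereas TYK2 and SOCS1 lay further from the gene above them. The order in batch 1 was the same except that SOCS1 and SOCS3 changed places, at 0.548 ± 0.229 and 0.515 ± 0.227 (n = 2).

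OSMR, the signalling chain named for oncostatin M, was called with 4 of the 5 miRNAs of batch 2. In batch 1 it had 254 and 242 reads in the empty vector libraries, 74 and 59 with miR-1, and 262 and 247 with miR-122. The corresponding levels were 12.3 and 11.4 CPM, 3.45 and 2.85 CPM, and 12.9 and 11.8 CPM, so that miR-122 overlapped the control and miR-1 did not. In bulk libraries such as these, fewer cells with a transcript and less of it per cell cannot be told apart. With miR-1 the level was 0.267 of the control, a log2 fold change of -1.91 (SE 0.136), which is the value OSMR was chosen on. With miR-122 the log2 fold change was 0.06 (SE 0.104, adjusted p = 0.825, 95% confidence interval -0.16 to 0.27).

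Batch 2 had its own control libraries and other miRNAs than the comparison with miR-1, although the 10 genes were taken up with earlier results of both batches known. The empty vector libraries had 9.90, 9.49 and 10.1 CPM of OSMR. The miR-133a libraries had 5.39, 5.62 and 5.83 CPM, the miR-302a libraries 5.19, 4.81 and 5.03, the miR-372 libraries 4.599, 3.52 and 5.22, and the miR-373 libraries 4.17, 4.76 and 6.53. All 12 of these libraries lay below the lowest control. The share of all genes with such a separation was not counted, for OSMR or for the genes below, and no call rests on it. The miR-155 libraries, at 7.89, 6.12 and 9.84 CPM, overlapped the control. OSMR fell with miR-133a (log2 fold change -0.80, SE 0.183, adjusted p = 0.0119), miR-302a (-0.97, SE 0.184, adjusted p = 0.00256), miR-372 (-1.12, SE 0.183, adjusted p = 0.00058) and miR-373 (-0.89, SE 0.178, adjusted p = 0.00511), by edgeR's quasi-likelihood test with Benjamini-Hochberg adjustment over all genes. With miR-155 the value was -0.30 (SE 0.177, adjusted p = 0.312, interval -0.67 to 0.07), and it ran from -0.15 without miR-155 replicate 2 to -0.48 without its replicate 3. These comparisons share the 3 empty vector libraries. Against the mean of the other 4 miRNAs of batch 2, a contrast without the control, OSMR was higher with miR-155 by 0.64 on the log2 scale (SE 0.142, adjusted p = 0.00241; with a replicate block 0.64, adjusted p = 0.000468). The miR-133a call was lost without miR-133a replicate 1 (adjusted p = 0.0527), and the calls for the miRNAs of the shared seed held in each of 6 fits that left out 1 library. With the length slope as a covariate the 4 log2 fold changes were -0.66, -0.76, -0.91 and -0.78, with adjusted p from 0.00427 to 0.0273. None of these 4 miRNAs has a match in the OSMR 3'UTR.

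**Figure D2:**
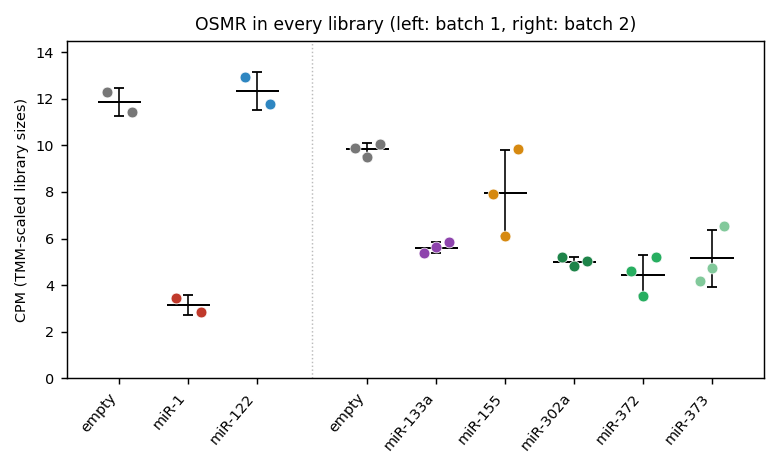
OSMR in each of the 24 libraries. The y axis is CPM on TMM-scaled library sizes, each point is 1 library, and bars give the group mean ± SD; batch 1 lies left of the dotted line and batch 2 right of it. The 2 miR-1 libraries lie at 3.45 and 2.85 CPM, and all libraries of the batch 2 miRNAs other than miR-155 lie below their control.

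IL6ST (ENSG00000134352.15, chr5:55230923-55290850, minus strand), the gene of the shared chain gp130, fell with 3 miRNAs. Its control libraries of batch 2 had 103, 101 and 95.2 CPM. It had 75.9, 69.7 and 72.2 CPM with miR-155, 65.9, 84.2 and 64.5 with miR-302a, and 79.9, 71.7 and 79.5 with miR-372, all below the control. The log2 fold changes were -0.46 with miR-155 (SE 0.0910, adjusted p = 0.00376), -0.47 with miR-302a (SE 0.0909, adjusted p = 0.00281) and -0.37 with miR-372 (SE 0.0905, adjusted p = 0.0124). With miR-133a (-0.24, adjusted p = 0.144) and miR-373 (-0.19, adjusted p = 0.290) it did not pass. All libraries of both lay below the control, a separation that was not counted over all genes. Against the mean of the other batch 2 miRNAs, IL6ST with miR-155 was at -0.14 (adjusted p = 0.175), so it was not shown to differ from them. The miR-155 call, the one with sites in the 3'UTR, held in 6 of 6 fits without 1 library, and with the length covariate it stood at -0.32 (adjusted p = 0.0351). The miR-372 call was lost in 3 of 6 such fits (adjusted p up to 0.0547, without miR-372 replicate 2, empty vector replicate 1 or empty vector replicate 2) and with the length covariate (-0.24, adjusted p = 0.0738). In batch 1, where the miR-1 values are descriptive, IL6ST had 118 and 105 CPM in the control and 119 and 127 with miR-1. The IL6ST 3'UTR has a 7mer-A1 match to miR-1, and the log2 fold change with miR-1 was 0.14.

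LIFR (chr5:38474770-38608456, minus strand), the chain for leukaemia inhibitory factor that also pairs with gp130 for oncostatin M, had 120, 118 and 111 CPM in the batch 2 control. It had 93.4, 87.8 and 97.1 CPM with miR-155, 82.7, 99.2 and 93.2 with miR-302a and 95.7, 76.6 and 97.2 with miR-372, again with no overlap with the control. It fell by 0.32 on the log2 scale with miR-155 (SE 0.0866, adjusted p = 0.0281), by 0.34 with miR-302a (SE 0.0865, adjusted p = 0.0203) and by 0.37 with miR-372 (SE 0.0864, adjusted p = 0.00967). With miR-133a, 123, 121 and 121 CPM, all 3 libraries lay above the control, and the log2 fold change was 0.07 (adjusted p = 0.701). With miR-373 it was -0.21 (adjusted p = 0.195) and was not called. Its 3 libraries lay below the control, a separation that was not counted over all genes. Against the mean of the other batch 2 miRNAs, LIFR with miR-155 was at -0.11 (adjusted p = 0.260) and was not shown to differ. Leaving out 1 library ended the miR-155 call in 5 of 6 fits (adjusted p up to 0.123), the miR-302a call in 4 of 6 (up to 0.138) and the miR-372 call in 1 of 6 (0.0508, without miR-372 replicate 2). The libraries were, for miR-155, each empty vector replicate and miR-155 replicates 1 and 2, and for miR-302a, empty vector replicates 1 and 2 and miR-302a replicates 1 and 3. With the length covariate the miR-155 value was -0.17 (adjusted p = 0.226) and the miR-302a value -0.21 (adjusted p = 0.0782). In batch 1, LIFR had 121.9 and 112 CPM in the control, 92.3 and 90.3 with miR-1 and 108 and 113 with miR-122, so the miR-1 libraries lay below both other groups. The miR-1 log2 fold change, described without a test, was -0.36 (SE 0.0493).

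JAK1 (chr1:65298906-65533437, minus strand), which with TYK2 and JAK2 is bound by gp130, was lower with the miRNAs of the shared seed. Its 8mer for that seed, shown above, lies 245 bases into a 3'UTR of 1333 bases. The control libraries of batch 2 had 108, 112 and 108 CPM. There were 78.6, 89.5 and 78.2 CPM with miR-302a, 81.8, 76.8 and 91.1 with miR-372 and 87.4, 99.3 and 92.3 with miR-373. All 9 libraries lay below the control. The miR-133a libraries, at 103, 107 and 106 CPM, lay just below it as well. The miR-155 libraries, at 108, 106 and 110 CPM, lay within or close to it. JAK1 fell with miR-302a (log2 fold change -0.41, SE 0.0749, adjusted p = 0.00187) and miR-372 (-0.39, SE 0.0746, adjusted p = 0.00218), and was at -0.23 with miR-373 (SE 0.0743, adjusted p = 0.0846). The mean of the 3 same-seed groups against the control was -0.34 (SE 0.0598, adjusted p = 0.000644) and was called in 12 of 12 fits without 1 library. With the length covariate it was -0.26 (adjusted p = 0.00241). With miR-133a, which has a 7mer-A1 match in the same 3'UTR, JAK1 was at -0.05 (SE 0.0745, adjusted p = 0.748, interval -0.21 to 0.11).

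TYK2, without any 3'UTR match, had 91.3, 103 and 106 CPM in the batch 2 control and 81.1, 66.9 and 88.6 with miR-372. It fell with miR-372 (-0.34, SE 0.0990, adjusted p = 0.0307) and in the same-seed mean (-0.29, SE 0.0796, adjusted p = 0.0170). The miR-372 call was lost in 4 of 6 fits without 1 library (adjusted p up to 0.132; empty vector replicates 2 and 3, miR-372 replicates 1 and 2), and the same-seed call in 2 of 12 (up to 0.104; empty vector replicates 2 and 3). With the length covariate they were -0.19 (adjusted p = 0.182) and -0.16 (adjusted p = 0.116). JAK2, at 8.85, 8.17 and 7.06 CPM in the control, was called with none of the miRNAs of batch 2 or with miR-122. Its lowest value was -0.30 with miR-372 (SE 0.142, adjusted p = 0.183), and with miR-155, for which it has a 7mer-m8 site, it was at -0.10 (adjusted p = 0.714, interval -0.40 to 0.20).

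The STAT genes moved little. STAT3, the main transcription factor downstream of gp130, had 103, 117 and 114 CPM in the batch 2 control, and its log2 fold changes over the 5 miRNAs of that batch ran from 0.03 with miR-133a to 0.18 with miR-373 (SE 0.0730, adjusted p = 0.197). Its 7mer-m8 match to the shared seed thus went with values above 0: 0.15 with miR-302a, 0.12 with miR-372 and 0.18 with miR-373, none of them called, and the interval of the same-seed mean was 0.02 to 0.27. With the length covariate the miR-373 value was 0.21 (adjusted p = 0.0417) and the same-seed mean 0.21 (adjusted p = 0.0196). STAT5B, which growth hormone and interleukin receptors use, ranged from -0.14 with miR-372 to 0.11 with miR-155, and its intervals for these groups were -0.32 to 0.05 and -0.08 to 0.29.

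SOCS1 and SOCS3 were read from few counts. SOCS1 had 5, 12 and 10 reads in the batch 2 control and 10, 11 and 10 with miR-155, or 0.375, 0.791 and 0.699 CPM against 0.652, 0.841 and 0.708. All 3 miR-155 libraries lay within or above the range of the control, although the SOCS1 3'UTR has the miR-155 8mer. The log2 fold change was 0.21 (SE 0.338, adjusted p = 0.773), and the interval, -0.49 to 0.92, leaves room for a fall of 0.49 on the log2 scale that these counts could not have shown. With miR-373 SOCS1 had 19, 17 and 42 reads (1.47, 1.02 and 1.19 CPM), above all 3 controls, with a log2 fold change of 0.94 (SE 0.297, adjusted p = 0.0775). SOCS3, a gene that STAT3 itself turns on, had 22, 37 and 31 reads in the batch 2 control. Its values ran from -0.60 with miR-155 (SE 0.314, adjusted p = 0.251; 33, 13 and 13 reads) to 0.08 with miR-302a (adjusted p = 0.906). The miR-155 value moved with the library left out, to -1.12 without miR-155 replicate 1 and to -0.39 without its replicate 3. In batch 1 SOCS1 had 10 to 21 reads and SOCS3 20 to 41 reads in every library.

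**Figure D3:**
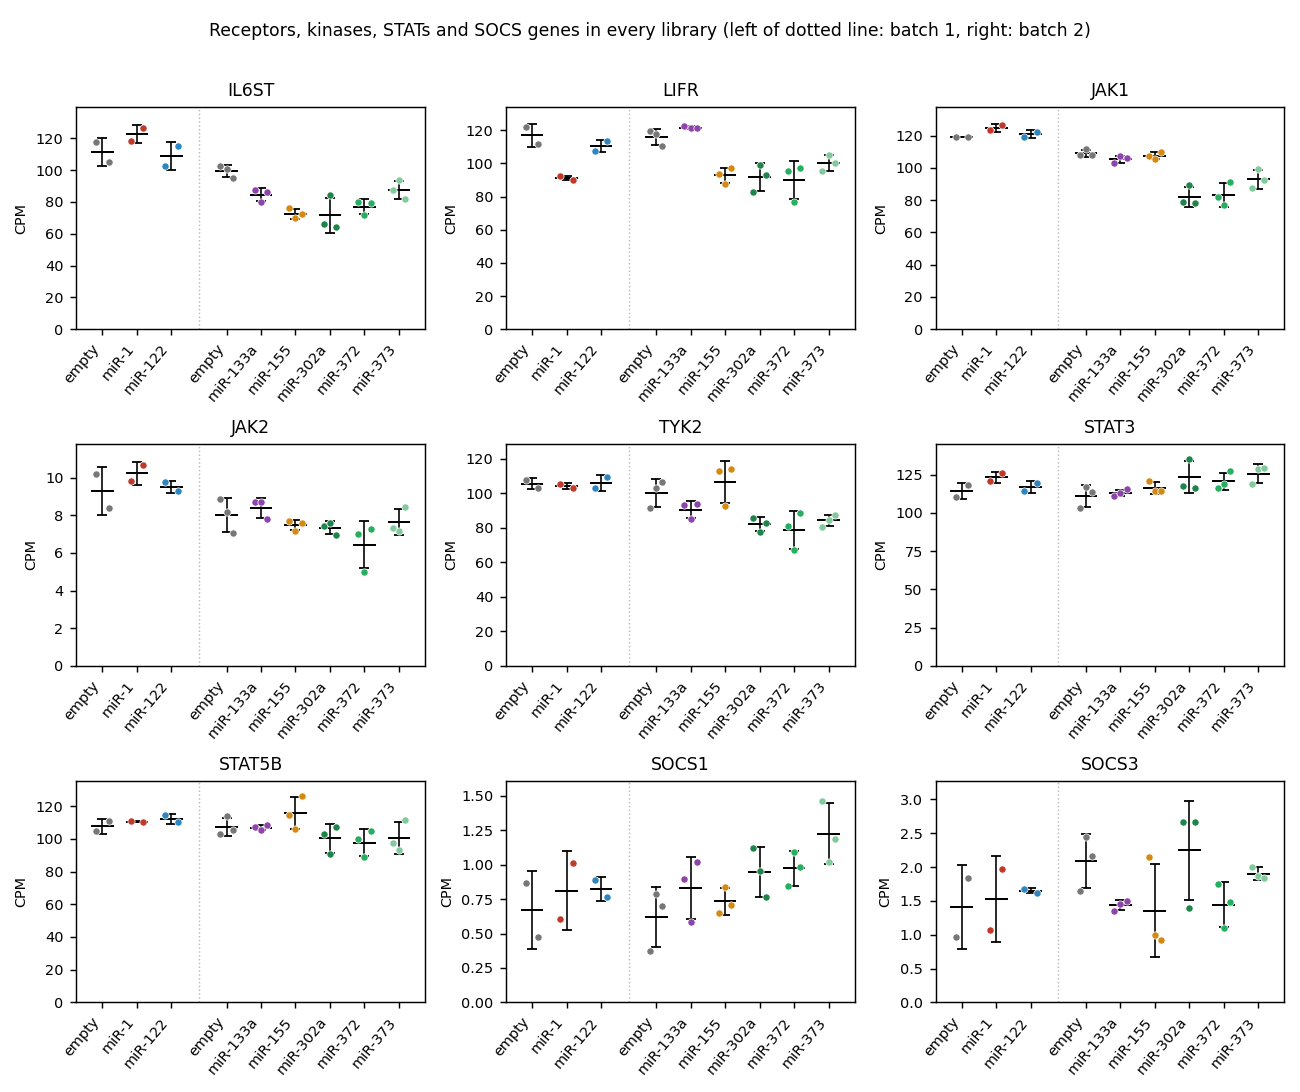
The other 9 genes in each of the 24 libraries. Each panel's y axis is CPM from 0, points are libraries, bars give the group mean ± SD, and the dotted line parts batch 1 from batch 2. JAK1, TYK2, IL6ST and LIFR lie below the batch 2 control in all libraries of the shared seed. IL6ST and LIFR do so in the miR-155 libraries as well, and IL6ST and, by little, JAK1 in the miR-133a libraries. The SOCS1 and SOCS3 panels span 0.375 to 1.47 and 0.921 to 2.67 CPM.

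Counted against all genes, 0 of the 10 were lower with miR-122, where 4.06% of all tested genes were called lower and 1.86% higher, and 0 of them had an unadjusted p under 0.05 (19.7% of all genes) or a DESeq2 call (410 of all genes). With miR-133a 1 was lower (background 3.97%, and 1.37% higher), with miR-155 2 (4.81%, and 2.82%), with miR-302a 4 (4.85%, and 3.02%), with miR-372 5 (6.56%, and 4.82%) and with miR-373 1 (3.30%, and 1.83%). In the same-seed mean 5 were lower, where the background was 9.11%, with 6.28% higher. None of the 10 was higher in any of these comparisons, by edgeR. The count was 0 with miR-133a without its replicate 1, 2 with miR-372 without its replicate 2, and 1 with miR-155 without any of the 5 libraries named for LIFR. With miR-1, the comparison OSMR was chosen on, 2 were lower, OSMR among them (background 13.7%, and 10.8% higher), and against miR-122, with the same miR-1 libraries, 3 passed in either direction, again with OSMR (background 31.2%). Nothing is read from these last counts. The 10 genes were taken up with earlier results of both batches known, so the other counts beside the background are descriptions as well. Between miR-155 and the other miRNAs of batch 2, 3 of the 10 passed (background 25.0%), namely OSMR, JAK1 (0.25 higher, adjusted p = 0.00365) and TYK2 (0.35 higher, adjusted p = 0.00255). With a replicate block these 3 held and STAT5B passed as well (0.19 higher, adjusted p = 0.0183, against 0.0509 without the block). The median log2 fold change of the 10 was -0.35 with miR-372, -0.21 with miR-302a, -0.17 with miR-373, -0.06 with miR-155, -0.03 with miR-133a and 0.04 with miR-122, beside medians of at most 0.01 in size over all tested genes. With miR-1 it was 0.09. The backgrounds hold genes of every length, and the 10 were not matched to them by length. With the length covariate 1 was called in either direction with miR-155, 3 with miR-372 and 2 with miR-373. The share of all genes called was not counted with that covariate, with a replicate block or without 1 library.

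The 3 miRNAs of the shared seed could be compared with each other directly, in 3 pairs. No gene of the whole table was called in any pair by edgeR (0%, 0% and 0%). An unadjusted p under 0.05 was found for 0.868% of genes when miR-302a was set against miR-372, 1.31% against miR-373, and 1.11% when the latter 2 were compared, and DESeq2 called 0, 3 and 1 genes. IL6ST was lower with miR-302a than with miR-373 by 0.29 on the log2 scale (SE 0.0906, unadjusted p = 0.00492, not called after adjustment, interval -0.48 to -0.10). Without replicate 2 of miR-155, miR-302a and miR-372, a setting chosen after seeing the data, this difference was -0.43 and was called (adjusted p = 0.0438). JAK1 was also lower than with miR-373, by 0.18 with miR-302a (unadjusted p = 0.0263) and by 0.16 with miR-372 (unadjusted p = 0.0462), neither called after adjustment. For OSMR the difference was 0.15 for miR-302a less miR-372 (interval -0.26 to 0.55), -0.08 for miR-302a less miR-373 (-0.47 to 0.31) and -0.23 for miR-372 less miR-373 (-0.62 to 0.16), so differences of this size between the 3 remain possible. The pattern of calls, with 4, 5 and 1 genes, is not shown to differ between the 3 miRNAs when all libraries are used.

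**Figure D4:**
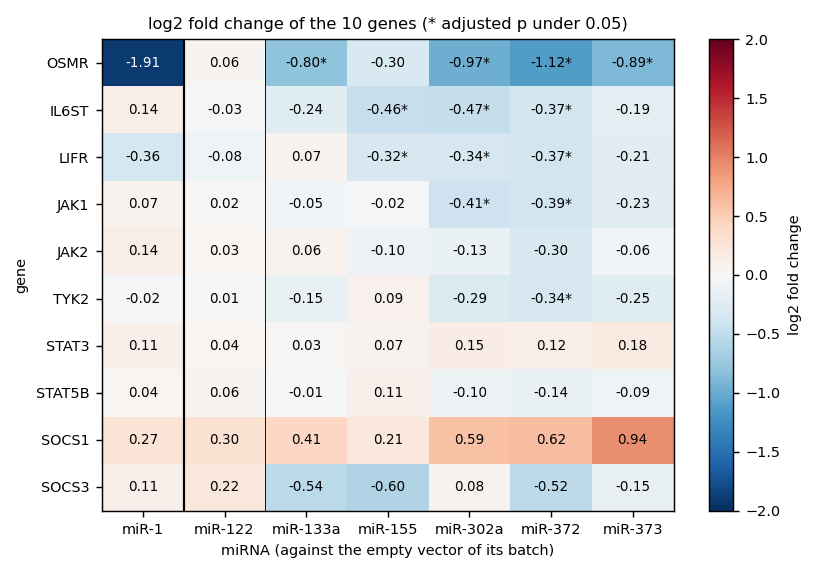
The log2 fold change of the 10 genes with each miRNA against the empty vector of its own batch, in colour and as printed values. Asterisks mark an adjusted p under 0.05 by edgeR, and the miR-1 column left of the thick line is shown without marks because OSMR was chosen on it. The marked cells, 13 in all, are below 0 and lie in OSMR, IL6ST, LIFR, JAK1 and TYK2.

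Another 85 genes of the pathway, in 7 lists (ligands, receptor chains, kinases and STATs, inhibitors, adaptors and STAT3 targets), were read in the same fits, and 67 were tested. Lower and higher calls numbered 1 and 2 with miR-122, 1 and 1 with miR-133a, 10 and 1 with miR-155, 4 and 3 with miR-302a, 6 and 5 with miR-372, 3 and 1 with miR-373, and 9 and 5 in the same-seed mean, to be read beside the background percentages above. With miR-1 there were 10 and 5. The lists were also chosen with earlier results known, so these counts and those of single lists below are descriptions. Leaving out 1 library at a time gave totals from 0 (without empty vector replicate 1) to 2 with miR-373, below the full total in each of these smaller fits, and from 2 (without empty vector replicate 1) to 11 (without miR-302a replicate 2) with miR-302a.

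Among the 6 tested receptor chains that join gp130 or resemble it, LEPR, the leptin receptor, and CNTFR, the ciliary neurotrophic factor receptor, moved in opposite directions with the shared seed. LEPR was at 80.5 ± 6.47 CPM (SD, n = 3) in the batch 2 control and at 58.8 ± 5.59 with miR-302a, 55.7 ± 6.37 with miR-372 and 59.4 ± 3.74 with miR-373. It fell by 0.45, 0.53 and 0.44 on the log2 scale (adjusted p = 0.00386, 0.000855 and 0.00673). CNTFR rose from 4.75 ± 1.27 CPM to 7.93 ± 1.42, 8.49 ± 0.734 and 7.76 ± 1.3 (log2 fold changes 0.73, 0.84 and 0.72, adjusted p = 0.0232, 0.00659 and 0.0281). With miR-155 CNTFR fell instead, to 2.84 ± 0.260 CPM (-0.74, adjusted p = 0.0386). IL6R, the interleukin-6 receptor, fell with miR-155 (-0.58, adjusted p = 0.00604) and rose with miR-122 (0.52, adjusted p = 0.00219) and miR-372 (0.41, adjusted p = 0.0287). In the same-seed mean CNTFR was higher by 0.76 (adjusted p = 0.00300) and IL6R by 0.37 (adjusted p = 0.0138). In batch 1, without a test, LIF, LEPR and CNTFR stood at -0.64, -0.40 and -0.62 with miR-1. Of 9 ligands of the family 4 were tested, and none was called outside the miR-1 comparison.

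Of 14 tested receptors of other JAK-coupled cytokines, miR-155 gave 1 lower call, IL4R, the interleukin-4 receptor, at 12.3 ± 0.846 CPM in the control and 5.73 ± 1.25 with miR-155 (-1.10, SE 0.162, adjusted p = 0.000227). Over all tested genes 4.81% were called lower with miR-155, a share that also stands beside the inhibitors below. The interferon receptor IFNAR1 fell with miR-302a (-0.46, adjusted p = 0.00345). GHR, the growth hormone receptor, fell with miR-372 (-1.03, SE 0.314, adjusted p = 0.0402) from a low level of 1.17 ± 0.0434 CPM. IL12RB2, a chain of the interleukin-12 receptor, fell with miR-302a (-0.55, adjusted p = 0.0489), and IL20RA, of the interleukin-20 receptor, with miR-373 (-0.68, adjusted p = 0.0258). In the same-seed mean GHR was at -0.82 (adjusted p = 0.0306) and IL20RA at -0.51 (adjusted p = 0.0164). With miR-1 IL20RA stood at -0.72, without a test. Of 6 tested JAKs, STATs and partners, STAT4 fell with miR-372 (-0.75, adjusted p = 0.0418) and in the same-seed mean (-0.66, adjusted p = 0.0198). Of 14 other inhibitors miR-155 gave 3 lower calls, the ubiquitin ligase CBL (-0.70, adjusted p = 0.00216), SOCS6 (-0.31, adjusted p = 0.0415) and PIAS1 (-0.30, adjusted p = 0.0483), all 3 named after their values were seen. SOCS2 fell with miR-133a (-0.39, adjusted p = 0.0374) and the phosphatase gene PTPN1 with miR-122 (-0.22, adjusted p = 0.00257). Of 5 adaptors GAB1, a docking protein, fell with miR-302a (-0.36), miR-372 (-0.49) and miR-373 (-0.40), with adjusted p = 0.0451, 0.00609 and 0.0320.

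Of 18 tested STAT3 target genes, miR-155 gave 4 lower and 1 higher, miR-302a 0 and 2, and miR-372 0 and 3. Over all tested genes, 4.81% were lower and 2.82% higher with miR-155, 4.85% and 3.02% with miR-302a, and 6.56% and 4.82% with miR-372. The cyclin gene CCND1 was at 150 ± 10.8 CPM in the batch 2 control and 88.7 ± 4 with miR-155 (-0.76, SE 0.0888, adjusted p = 1.73e-05). MYC, a growth regulator, went from 195 ± 7.98 CPM to 133.4 ± 11.1 with miR-155 (-0.55, adjusted p = 0.00604), 267 ± 51.6 with miR-302a (0.45, adjusted p = 0.0188) and 260 ± 24.3 with miR-372 (0.42, adjusted p = 0.0246), and was 0.38 higher in the same-seed mean (adjusted p = 0.0103). PIM1, a kinase gene, rose with miR-302a (0.37, adjusted p = 0.0480), and the stress-response gene IER3 rose with miR-155 (0.52, adjusted p = 0.0314). The survival gene BIRC5 rose with miR-133a (0.31, adjusted p = 0.0326), and JUNB, of the AP-1 family, with miR-122 (0.27, adjusted p = 0.0422). With miR-1, described without a p, 3 of the 18 passed the threshold below 0 and 4 above it (13.7% and 10.8% of all tested genes). TIMP1, MYC and HIF1A, named after their values were seen, stood at -0.34, -0.28 and -0.12, and JUNB, BIRC5 and CEBPB at 0.23, 0.22 and 0.21.

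**Figure D5:**
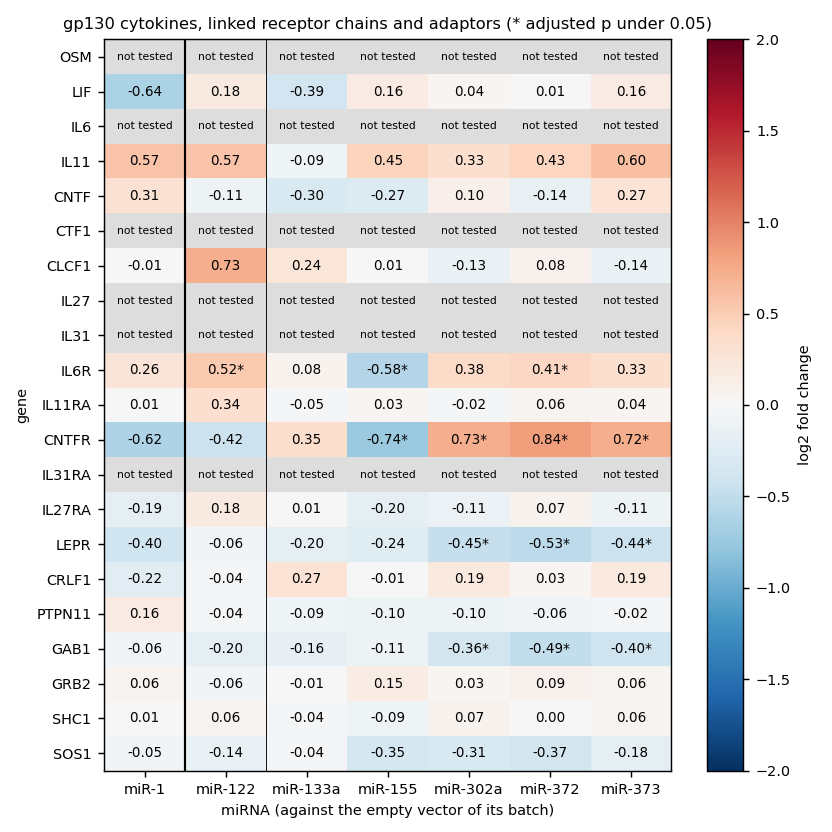
The log2 fold change of the gp130 cytokines, linked receptor chains and adaptors with each miRNA against the empty vector of its batch, as colour and printed value. Grey cells failed the filter on low counts, asterisks mark an adjusted p under 0.05 by edgeR, and the miR-1 column carries no marks. LEPR and GAB1 are marked below 0 and CNTFR above 0 in the 3 columns of the shared seed, and CNTFR and IL6R are below 0 with miR-155.

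Over the 24 libraries, each set against the control mean of its batch, the genes most like OSMR in log2 level were UST (Pearson r = 0.870), DAP (0.865), TFPI (0.841), SMIM14 (0.839) and TMEM254 (0.835), among 12261 genes ranked. The libraries share groups, so these values describe the group pattern and carry no p. The miR-1 libraries, on which OSMR was chosen, are among the 24. Within batch 2 alone the r was 0.874, 0.814, 0.681, 0.728 and 0.732, at ranks 25, 119, 679, 423 and 402. Of the other members LIFR was at 0.577 (rank 536 over all 24 libraries) and TYK2 at 0.552 (rank 670). STAT5B was at 0.443, JAK1 at 0.391, JAK2 at 0.185, IL6ST at 0.0917 and STAT3 at -0.464. SOCS1 and SOCS3 were below the level needed for the ranking.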

How the data were processed

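RNA-seq was made from polyA RNA of 24 cultures. Per the labels and the study's methods, the authors trimmed reads, aligned them to hg19 (GRCh37) with TopHat2 2.1.1 and deposited raw read counts per gene, counted by strand over exons with featureCounts. The authors' edgeR 3.24.3 tables (fold changes, mean levels, p-values) were not used. Reads from the pseudogene IL6STP1 could touch IL6ST, and microRNA genes, pseudogenes or other small genes lie inside LIFR, JAK1, JAK2 and STAT5B on the same strand.

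Genes were named from Ensembl identifiers (28543 of 29794 had a symbol). Each batch was fitted separately with edgeR 4.0.16 in R 4.3.3 (filterByExpr minimum count 10, TMM, quasi-likelihood test, all groups in 1 fit, Benjamini-Hochberg adjusted p under 0.05 over 14348 and 14054 genes). The SE is the log2 fold change divided by the square root of F, and intervals cover 95%. DESeq2 1.42.0 was an alternative. The members and lists were chosen with earlier results of these data known. All members are named, and of the lists at most 3 lower and 3 higher genes with the largest change per comparison, apart from IL6R, LEPR, GAB1 and MYC, which are followed across comparisons, and CBL, SOCS6, PIAS1, TIMP1 and HIF1A, named after their values were seen. Replicate numbers were checked as pairs. No group and its control deviated together by number (r over 0.1 in every pair), but 5 pairs of miRNA groups of batch 2 did: miR-155 with miR-372 (r 0.273 to 0.614), miR-133a (0.183 to 0.345) and miR-302a (0.112 to 0.202), and miR-372 with miR-133a (0.137 to 0.300) and miR-302a (0.161 to 0.336). With a replicate block 0 members were called between miR-302a and miR-372, as without. Intervals and tests cover the spread between cultures. Counts of 5 to 42 reads limit SOCS1.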

Additional observations from a re-analysis of the deposited data

How the results depend on the processing

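DESeq2 size factors, the DESeq2 Wald test and a minimum of 1 CPM in every library, which SOCS1 and SOCS3 do not reach, changed no call of a member against the empty vector and kept every count of member and pathway calls within 1.5 times. Over all genes the DESeq2 Wald test called 410 with miR-122, against 849 by edgeR. Without a filter on low counts the 67 pathway genes gave 4 calls with miR-133a (2 with the filter). The replicate block gave 5 pathway calls with miR-133a, 11 with miR-302a (7 without the block) and 8 with miR-373 (4 without), called TYK2 with miR-302a (-0.29), and changed no other member call against the empty vector. Between miR-155 and the other batch 2 miRNAs 4 members were called instead of 3 with the block, as with DESeq2 size factors and the DESeq2 Wald test. With only the groups compared in the fit, 2 members were called with miR-133a and 3 with miR-372, and the pathway calls were 7 with miR-133a, 7 with miR-155, 6 with miR-372 and 7 with miR-373. IL6ST was then called with miR-133a (-0.24) and TYK2 with miR-302a (-0.29), and LIFR and TYK2 were lost with miR-372.

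Both settings that follow were chosen after seeing the data. With the length slope as a covariate 1 member was called with miR-155, 3 with miR-372 and 2 with miR-373, and 5 and 7 pathway genes with miR-122 and miR-373. Values that were near 0 changed sign in 8 cases: TYK2 (0.014) and SOCS3 (-0.043) with miR-1, IL6ST (0.099) with miR-122, JAK1 (0.013) and STAT5B (0.037) with miR-133a, JAK1 (0.089) and JAK2 (0.048) with miR-155, and JAK2 (0.010) with miR-373. Without replicate 2 of miR-155, miR-302a and miR-372, which lay furthest from their groups, 2 members were called with miR-133a, 4 with miR-373 and 1 between miR-302a and miR-373. The pathway calls were then 7 with miR-133a, 16 with miR-302a, 12 with miR-373 and 22 in the same-seed mean. For the alternative fits of this section, apart from the DESeq2 Wald test, the share of all genes called was not counted. A shift in a count is therefore not read as particular to the listed genes. The cause of these shifts was not tested.

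Leaving out 1 library at a time gave 0 to 1 member calls with miR-133a, 1 to 2 with miR-155 and 2 to 5 with miR-372, the lowest without miR-133a replicate 1, without any of 5 libraries for miR-155 and without miR-372 replicate 2. Pathway calls ranged from 7 (without miR-1 replicate 1) to 19 (without empty vector replicate 2) with miR-1, 1 to 6 with miR-122, 0 to 1 with miR-133a, 6 to 10 with miR-155, 2 to 11 with miR-302a, 4 to 10 with miR-372, 0 to 2 with miR-373 and 7 to 16 in the same-seed mean, and for batch 2 each lowest count came without empty vector replicate 1 or 2. These fits have fewer samples. Members that were not called crossed 0 in some of them. With miR-1 TYK2 ranged from -0.042 to 0.014, STAT5B from -0.0063 to 0.085, SOCS1 from -0.13 to 0.76 and SOCS3 from -0.38 to 0.65. With miR-122 OSMR ranged from -0.0084 to 0.13, IL6ST from -0.12 to 0.052, JAK2 from -0.098 to 0.18, TYK2 from -0.033 to 0.052, STAT3 from -0.0093 to 0.085, SOCS1 from -0.078 to 0.79 and SOCS3 from -0.16 to 0.77. With miR-133a JAK2 ranged from -0.021 to 0.14, STAT3 from -0.027 to 0.063 and STAT5B from -0.039 to 0.035. JAK1 (-0.035 to 0.00083) and SOCS1 (-0.030 to 0.43) with miR-155, SOCS3 with miR-302a (-0.073 to 0.35) and JAK2 with miR-373 (-0.15 to 0.016) did so too.

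The likeness to OSMR depended on which libraries were used, and the 5 leading genes did not stay the leading 5 within a batch. In batch 1 alone r was 0.990 for UST, 0.965 for DAP, 0.942 for TFPI, 0.985 for SMIM14 and 0.976 for TMEM254, and in batch 2 alone 0.874, 0.814, 0.681, 0.728 and 0.732. Counting any annotated 3'UTR instead of the longest raised the members with a miR-133a site from 2 to 3, with IL6ST added. Depth limits SOCS1 and SOCS3 most, with 5 to 65 reads a library.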
